A study of Mus musculus with 12 samples.

Results

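The clustered histone genes are the genes whose names begin with *Hist1h*, *Hist2h*, *Hist3h* or *Hist4h*. They were chosen by these prefixes alone, and 67 of the 32288 genes and transgenes in the count table carried 1 of them. By class, 6 encoded the linker histone H1, 18 encoded H2A, 18 encoded H2B, 12 encoded H3 and 13 encoded H4. On GRCm38, 54 of the genes lay in the *Hist1* cluster (chr13:21715763-23934851), 10 in *Hist2* (chr3:96219865-96270132), 2 in *Hist3* (chr11:58948920-58956830) and 1 in *Hist4* (chr6:136801553-136804415). In the annotation, 62 of them had a single exon.

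The data are bulk RNA-seq counts from 12 libraries of mGFP+ cells sorted from the metaphysis, the growing end of the long bone shaft, after removal of CD31+, CD45+ and TER119+ cells. All mice had a mixed C57BL/6–129×1/Sv background and carried *Osx-CreERT2*, a tamoxifen-inducible recombinase driven by the osteoblast lineage gene *Osx*, together with the *mTmG* reporter, and all received tamoxifen. Juvenile osteoblasts (4 libraries) came from mice aged 3 weeks. Adult osteoblasts (4 libraries) came from mice aged 8 weeks. For each of these libraries, 2 male mice were pooled. Their shafts were cut about 2 mm from the growth plate, and the piece next to the growth plate was kept. The *c-Myc* osteoblasts (2 libraries) also carried *LSL-tTA* and *Col1a1::TetO-c-Myc*, so that *c-Myc* was switched on without doxycycline in recombined cells. The *c-Myc* + *R172H* osteoblasts (2 libraries) carried in addition *Trp53-LSL-R172H*, a dominant-negative form of p53. To keep the transgene off, such inducible mice or pregnant females drank doxycycline or tetracycline until a set time before analysis. No such treatment is described for the control groups. Both induced groups were collected 7 days after tamoxifen, and the control groups sooner after a longer course of it. The titles of the induced groups give 3 weeks, whereas the protocol gives dissection at 5 weeks. In these groups the cut was about 5 mm from the growth plate, so more of the shaft side was kept. On their sex the sources differ, with both sexes in the cell preparation and males alone for RNA-seq elsewhere in the methods. Age, trimming, the tamoxifen schedule, the earlier doxycycline or tetracycline and any difference in sex therefore go with the induced groups. They cannot be told apart from *c-Myc* in any comparison of an induced group with juvenile osteoblasts.

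Histones package DNA into nucleosomes: pairs of H2A, H2B, H3 and H4 form the core, and H1 binds the linker DNA. Most clustered genes are replication-dependent, which means that they are transcribed mainly in S phase under the coactivator NPAT, when new chromatin is assembled. Their mRNAs usually end in a conserved stem-loop in place of a poly(A) tail, and the protein SLBP binds this stem-loop, while a machinery that includes the U7 snRNP cleaves the precursor just after it. In bone, proliferating progenitors and early osteoblasts pass through S phase, whereas mature osteoblasts and osteocytes leave the cell cycle.

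The stem-loop was the clearest sequence shared across classes that the name rule did not use. A match to its consensus was found in the annotated model of 46 of the 67 genes. The match lay in the last 100 bases of 22 of the 67 models, against 0 of 21884 other protein-coding genes. It took 8 forms of 16 bases. The commonest form was present in 26 genes of H1, H2A, H2B and H3 and in none of H4. The next form by number was present in 7 genes, all of H4. Genes that represent these forms are given below with the stem-loop in capitals and 5 flanking bases on each side, from the GENCODE transcript models of GRCm38, 5′ to 3′ on the gene's strand.
*Hist1h1e* (H1, chr13:23621782-23621797, minus strand): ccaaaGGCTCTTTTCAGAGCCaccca
*Hist1h2bj* (H2B, chr13:22043638-22043653, plus strand): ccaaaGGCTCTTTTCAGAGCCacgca
*Hist2h3c1* (H3, chr3:96247327-96247342, plus strand): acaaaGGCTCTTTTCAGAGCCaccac
*Hist1h3e* (H3, chr13:23561903-23561918, minus strand): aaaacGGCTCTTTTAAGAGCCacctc
*Hist1h3g* (H3, chr13:23535889-23535904, plus strand): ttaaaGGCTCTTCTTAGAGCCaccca
*Hist2h2ac* (H2A, chr3:96220418-96220433, minus strand): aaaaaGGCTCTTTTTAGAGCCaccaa
*Hist1h4d* (H4, chr13:23581950-23581965, plus strand): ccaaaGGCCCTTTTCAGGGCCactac
*Hist2h4* (H4, chr3:96262939-96262954, minus strand): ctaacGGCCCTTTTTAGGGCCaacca
*Hist4h4* (H4, chr6:136803998-136804013, minus strand): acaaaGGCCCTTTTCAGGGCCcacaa

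The gene models did not all end at the stem-loop. In 22 genes the model ended within 60 bases of it, in 24 it ran further, and 21 models held no stem-loop. Of the 67 models, 11 covered the coding sequence only. *Hist1h1c*, *Hist1h1e* and *Hist4h4* were models that ran on, with 840, 1153 and 2445 bases after the stem-loop. Whether the libraries were made by poly(A) selection or by rRNA depletion is not given in the sources used here, so reads from tailed and untailed forms of a histone mRNA cannot be told apart.

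Promoters differed by class. RefSeq promoter windows of 300 bases (GRCm38.p6, 250 before and 50 after the start) were available for 61 of the 67 genes and for 27025 genes in all. Both strands were searched for 4 patterns. CCAAT, the site of NF-Y, which reads ATTGG when it lies on the other strand, was present in 85.2% of histone promoters against 37.9% of all promoters, in every H1, H2A, H2B and H3 promoter and in 3 of 12 H4 promoters. TATAAA, the core of the TATA box, was present in 57.4% against 14.2%. The octamer ATTTGCAT, bound by Oct-1, was present in 21.3% against 1.75%, in 7 of 17 H2A and 6 of 16 H2B promoters and in no H1, H3 or H4 promoter. AAACACA, known as the H1 box, was present in 14.8% against 7.14%, and in 5 of 6 H1 promoters. The windows below run from 120 bases before to 30 bases after the start, 5′ to 3′ on the gene's strand, and show 1 promoter of H1, H2B and H3, and 2 of H4, with matches to these patterns in capitals. No match overlaps another in these windows, and *Hist4h4* held none of the 4 patterns.
*Hist1h1b* (chr13:21780596-21780745, minus strand): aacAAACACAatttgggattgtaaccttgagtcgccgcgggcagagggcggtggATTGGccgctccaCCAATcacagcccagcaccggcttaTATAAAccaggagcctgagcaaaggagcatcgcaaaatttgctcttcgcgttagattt
*Hist1h2bm* (chr13:21721924-21722073, plus strand): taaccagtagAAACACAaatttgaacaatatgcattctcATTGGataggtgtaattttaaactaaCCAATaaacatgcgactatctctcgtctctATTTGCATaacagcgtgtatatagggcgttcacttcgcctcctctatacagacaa
*Hist1h3d* (chr13:23575643-23575792, plus strand): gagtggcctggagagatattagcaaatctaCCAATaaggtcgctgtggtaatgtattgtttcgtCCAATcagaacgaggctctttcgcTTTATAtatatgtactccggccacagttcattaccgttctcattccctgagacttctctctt
*Hist1h4d* (chr13:23581448-23581597, plus strand): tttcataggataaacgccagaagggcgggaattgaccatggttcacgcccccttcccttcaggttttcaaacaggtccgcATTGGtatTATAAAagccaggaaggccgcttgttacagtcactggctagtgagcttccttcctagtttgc
*Hist4h4* (chr6:136804402-136804551, minus strand): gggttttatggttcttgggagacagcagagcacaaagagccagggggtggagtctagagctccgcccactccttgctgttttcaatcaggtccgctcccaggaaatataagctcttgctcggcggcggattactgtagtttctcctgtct

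Library totals lay between 9066154 and 15684412 counts. Histone genes took 0.0136% to 0.0407% of the counts in juvenile and adult libraries and 0.113% to 0.143% in the induced libraries. *Myc* itself was at 39.2 to 51.8 CPM (counts scaled to a common library size) in the 8 juvenile and adult libraries and at 638 to 766 CPM in the 4 induced libraries, as labelled. *Col1a1*, the main collagen gene of bone, took 21.4% to 39.1% of the counts in juvenile and adult libraries and 5.61% to 11.3% in induced ones, and *Gm26917* took 4.7% to 10.5% against 26.5% to 29.4%. CPM below were scaled by TMM factors, which correct for such differences in composition.

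Detection of the histone genes differed with group and with sequence. Detection was set at more than 3 counts. Between 36 and 53 of the 67 genes were detected per juvenile or adult library and 56 or 57 per induced library. In every library of their group, 30 genes were detected in juvenile, 36 in adult, 55 in *c-Myc* and 56 in *c-Myc* + *R172H* osteoblasts, and 28 were detected in all 12 libraries. This rule spans 4 libraries in juvenile and in adult but 2 in each induced group. In at least 1 library of the group, the numbers were 55, 55, 58 and 57. A count of 3 was 0.271 to 0.411 CPM in juvenile and adult libraries and 0.14 to 0.173 CPM in induced ones. All 12 H3 genes were detected in every induced library against 7 in every juvenile library, and 13 against 3 of the 18 H2A genes were detected in every *c-Myc* and every juvenile library. In at least 1 library, the numbers for *c-Myc* and juvenile were 12 and 11 for H3 and 13 and 13 for H2A. The same counts over all genes are not given here.

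The histone genes resemble each other, and only uniquely mapped reads of 86 bases had been counted. For the median gene, 65.1% of its 86-base windows were found at no other annotated gene. Of the 59 genes that exceeded 3 counts in some library, 5 had less than 20% such windows. Of the 8 genes that never exceeded 3 counts, 7 had less than 20% such windows (*Hist2h2aa1*, *Hist2h2aa2*, *Hist1h2ao*, *Hist1h2ap*, *Hist1h2bq*, *Hist1h2br* and *Hist1h4m*), so that a low count there does not show a low level. The other gene was *Hist1h2aa*, whose windows were all unique and which had 0 counts in all 12 libraries. It encodes a testis-specific H2A. The testis-specific H2B gene *Hist1h2ba* had 14 counts in adult replicate 1 and 4 in adult replicate 2, and 0 in the other libraries. The testis-specific H1 gene *Hist1h1t* had 11 counts in juvenile replicate 3, 8 in adult replicate 4, 8 in *c-Myc* replicate 1 and at most 3 elsewhere. No group of libraries was uniformly above the floor for these testis genes. In addition, 7 genes shared exon sequence with another gene on the same strand and 21 on the other strand. The former were *Hist1h1e*, *Hist1h2ac*, *Hist1h2be*, *Hist2h2aa1*, *Hist2h2bb*, *Hist2h3c1* and *Hist3h2a*. The strand setting of the counting is not given in the sources used here, so counts of overlapping genes are uncertain.

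**Figure D1:**
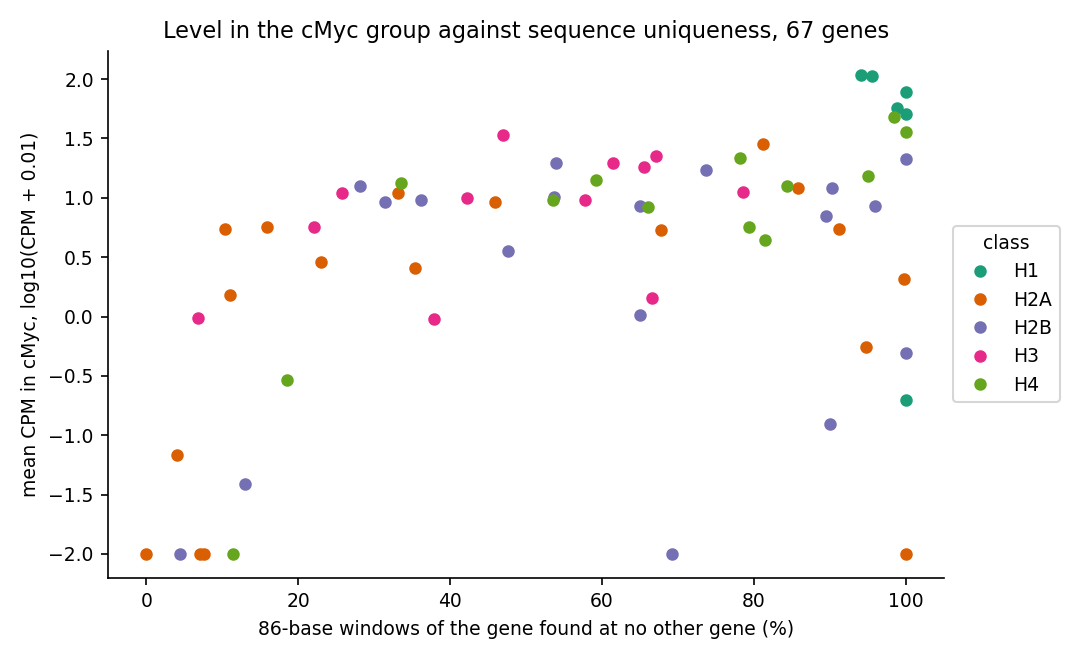
Each point is 1 of the 67 genes. The x axis gives the share of its 86-base windows found at no other annotated gene (%), and the y axis gives its mean level in *c-Myc* osteoblasts as log10(CPM + 0.01), with 0 CPM drawn at -2. Most points at or near -2 have less than 20% unique windows, and those at -2 include *Hist1h2aa*, with 100% unique windows.

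In the comparison of *c-Myc* with juvenile osteoblasts, histone genes of all 5 classes were higher in *c-Myc* osteoblasts. The question is what induction of *c-Myc*, a driver of cell growth and division, does to osteoblasts. The CPM of all 67 genes, summed per library with no filter, were 274, 258, 249 and 194 in juvenile osteoblasts and 1050 and 893 in *c-Myc* osteoblasts. Every *c-Myc* library was above every juvenile library, and the means of 244 ± 34.8 (SD, n = 4) and 970 ± 110 (SD, n = 2) differed 3.98-fold. The sums carry no test. In bulk libraries, a larger share of cells in S phase and more histone mRNA per cell cannot be told apart.

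The classes differed in the size of this ratio. H3 sums were 23.4, 26.0, 20.3 and 18.6 CPM in juvenile and 157 and 133 CPM in *c-Myc* osteoblasts, a 6.56-fold ratio of the means, and H2A sums were 17.2, 15.8, 17.0 and 8.57 against 94.8 and 89.8, a ratio of 6.31. H4 sums were 39.6, 42.8, 47.4 and 28.8 CPM against 212 and 166 CPM, a 4.76-fold ratio, and H2B sums were 41.2, 34.3, 41.1 and 25.0 against 164 and 119, a ratio of 3.99. The H1 sum had the lowest ratio, 3.05-fold, with 153, 139, 124 and 113 CPM against 421 and 385 CPM. In each class the groups did not overlap. H1 genes held 49.6% to 58.3% of all histone counts in the juvenile libraries and 40.1% to 43.2% in the *c-Myc* libraries, and H3 genes 8.13% to 10.1% and 14.9% to 15.0%. These are shares of uniquely mapped reads, not of histone mRNA. Unique windows made up 94.0% to 100% of each H1 gene. The range was 0% to 100% in H2A, 4.47% to 100% in H2B, 6.75% to 78.6% in H3 and 11.4% to 100% in H4.

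**Figure D2:**
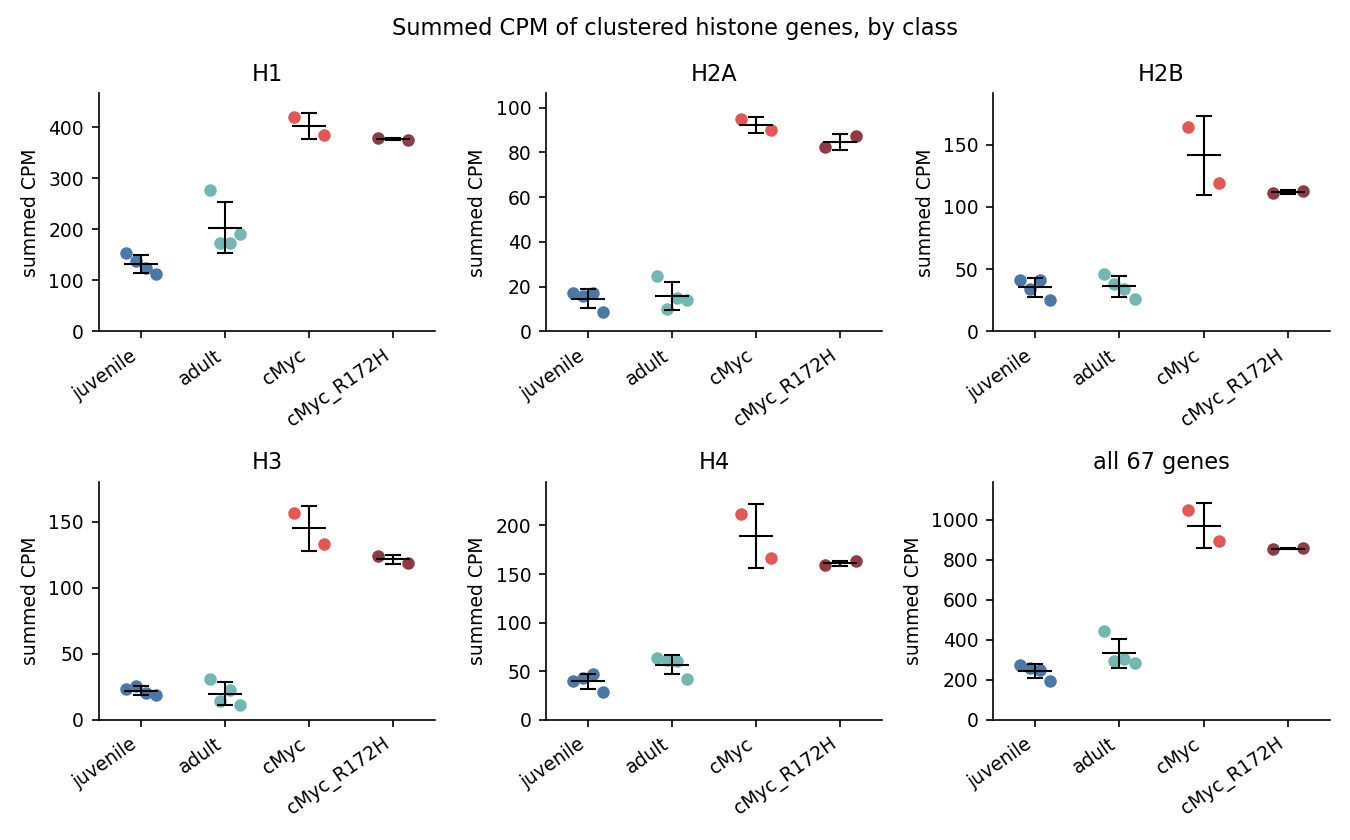
Summed CPM of all genes of a class (y axis, linear, a separate scale in each panel) in the 4 groups (x axis), with 1 point per library, a horizontal line at the mean and bars of 1 SD. All 4 induced libraries lie above all 8 juvenile and adult libraries in every panel, with 855 to 1050 against 194 to 442 summed CPM for all 67 genes.

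Gene by gene, 54 of the 67 passed the default expression filter, and 46 were called higher and 0 lower by edgeR's quasi-likelihood test (Benjamini-Hochberg adjusted p under 0.05 over all genes, and a log2 fold change of at least 1 in size). Among all 12588 genes tested, 18.4% were called higher and 16% lower. Of the 67 histone genes, 50 were higher and 0 lower without overlap between the groups, against 4678 and 3476 of all 12588 tested. Lack of overlap was therefore common in these groups. A gene detected only in the induced libraries can pass the filter through them alone. Of the 20 histone genes with at least 10 counts in every library, 16 were called higher. The median log2 fold change was 2.57 over the 54 genes, with *Hist1h3h* at the bound given below, and 0.04 over all genes tested. By class, 4 of 5 tested H1 genes were called higher, 11 of 12 of H2A, 10 of 14 of H2B, 10 of 12 of H3 and 11 of 11 of H4. The class medians, again with this bound, were 2.52 for H1, 3.00 for H2A, 2.22 for H2B, 2.74 for H3 and 2.76 for H4. The lowest class was therefore H2B by the median gene and H1 by the summed CPM. Leaving out 1 library of the comparison at a time gave between 40 and 47 called genes.

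The linker histones differed among themselves. H1 proteins compact chromatin, and *Hist1h1a*, *Hist1h1b*, *Hist1h1c*, *Hist1h1d* and *Hist1h1e* encode the somatic subtypes. *Hist1h1b* was at 10.7, 12.5, 8.22 and 10.2 CPM in juvenile and at 86.3 and 70.3 CPM in *c-Myc* osteoblasts, a log2 fold change of 2.84 (SE 0.15, edgeR adjusted p = 2.44e-08). *Hist1h1a* was at 6.33, 8.6, 6.99 and 6.86 CPM against 54.8 and 46.6 CPM, a log2 fold change of 2.75 (SE 0.15). *Hist1h1d* was at 11.7, 9.83, 10.3 and 6.0 CPM against 56.5 and 57.4 CPM, a log2 fold change of 2.52 (SE 0.19). These 3 genes were well separated between the groups.

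The 2 most abundant clustered linker genes of juvenile osteoblasts moved less. *Hist1h1e* was at 49.8, 44.5, 43.0 and 32.1 CPM in juvenile and at 110 and 105 CPM in *c-Myc* osteoblasts, a log2 fold change of 1.27 (SE 0.14, edgeR adjusted p = 8.35e-06). *Hist1h1c* was at 74.0, 64.0, 53.6 and 58.0 CPM against 113 and 106 CPM, a log2 fold change of 0.74 (SE 0.12, edgeR adjusted p = 0.00026), which passed the test but not the fold threshold. The groups did not overlap for either gene. Scaled to library totals, the log2 fold change of *Hist1h1c* was 1.56, and the gene was called. On the scale of mean CPM per kb of exon model, *Hist1h1c* (40.0) and *Hist1h1e* (21.9) were the highest histone genes of juvenile osteoblasts, and *Hist1h1b* (105) followed by *Hist1h2ak* (72.5) and *Hist1h1c* (70.1) were the highest of *c-Myc* osteoblasts. Genes with few unique windows lose counts on this scale, so the order holds for uniquely mapped reads only.

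*H1f0*, which lies outside the clusters and encodes the linker histone of resting and differentiated cells, went the other way. It was at 135, 98.3, 139 and 113 CPM in juvenile, 110, 115, 108 and 129 CPM in adult, 42.4 and 40.4 CPM in *c-Myc* and 30.2 and 30.5 CPM in *c-Myc* + *R172H* osteoblasts. It fell in *c-Myc* osteoblasts with a log2 fold change of -1.62 (SE 0.15, edgeR adjusted p = 1.6e-06). Scaled to library totals, this was -0.78, which passed the test but not the fold threshold. The ratio of *H1f0* to the summed H1 genes was 0.705 to 1.12 in juvenile, 0.398 to 0.682 in adult and 0.101 to 0.105 in *c-Myc* libraries. *H1fx*, a second linker gene outside the clusters, was at 5.74 to 10.0 CPM in juvenile and at 9.29 and 13.2 CPM in *c-Myc* osteoblasts and did not pass the test (edgeR adjusted p = 0.214).

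**Figure D3:**
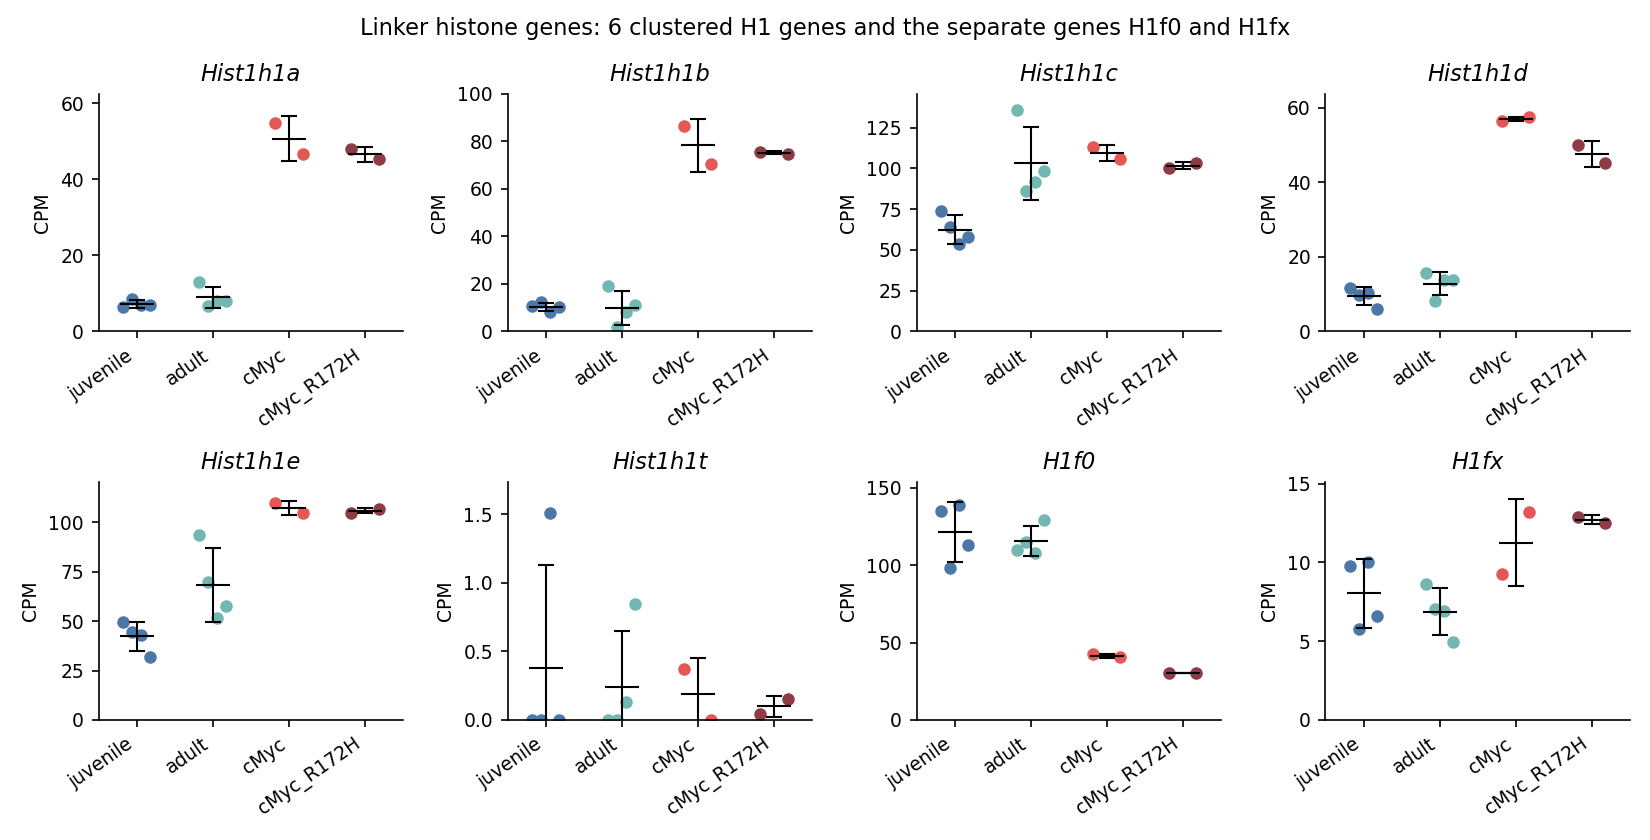
CPM (y axis, linear, a separate scale in each panel) of the 6 clustered H1 genes, *H1f0* and *H1fx* in the 4 groups (x axis), with 1 point per library, a horizontal line at the mean and bars of 1 SD. *Hist1h1b* rises from 8.22 to 12.5 CPM in juvenile libraries to 70.3 and 86.3 CPM in *c-Myc* libraries, *Hist1h1c* is also high in adult libraries, and *H1f0* falls in the induced groups.

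Among the H3 genes, which encode the replication-dependent forms of the core histone, *Hist1h3g* had the largest fold change of any clustered gene that was above 0 in the juvenile group. It was at 0.362, 0.205, 1.10 and 0 CPM in juvenile and at 9.71 and 9.44 CPM in *c-Myc* osteoblasts, a log2 fold change of 4.52 (SE 0.56, edgeR adjusted p = 2.52e-05), or 5.42 without juvenile replicate 3. *Hist1h3e* was at 7.33, 5.94, 3.43 and 5.51 CPM against 37.0 and 30.6 CPM, a log2 fold change of 2.52 (SE 0.22). The other named H3 genes were *Hist1h3f* (3.20), *Hist1h3a* (3.12) and *Hist1h3c* (2.65), where the values are log2 fold changes, and their groups did not overlap. *Hist1h3h* had 0 counts in all 4 juvenile libraries and 23 and 15 counts in the *c-Myc* libraries, which is at least 2.85-fold higher against a floor of 3 counts per library. Only 6.75% of its windows were unique, so its low counts do not show a low level. *Hist2h3c1* went the other way in its means but was not called, with 1.63, 2.15, 5.62 and 5.02 CPM in juvenile and 0.653 and 2.19 CPM in *c-Myc* osteoblasts (log2 fold change -1.39, SE 0.69, edgeR adjusted p = 0.109). Its groups overlapped.

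H4 genes all passed in this comparison where they could be tested. *Hist1h4d*, the most abundant H4 gene per kb in juvenile osteoblasts, was at 16.6, 19.3, 15.6 and 13.8 CPM in juvenile and at 54.7 and 40.4 CPM in *c-Myc* osteoblasts, a log2 fold change of 1.47 (SE 0.16, edgeR adjusted p = 7.11e-06). *Hist4h4*, the single gene of its cluster, was at 0.905, 1.23, 1.92 and 0 CPM against 17.0 and 13.5 CPM, a log2 fold change of 3.86 (SE 0.49). *Hist2h4* was at 9.05, 5.74, 5.62 and 2.45 CPM against 42.7 and 29.2 CPM, a log2 fold change of 2.56 (SE 0.32). *Hist1h4j* (3.76) and *Hist1h4f* (3.44) had larger log2 fold changes, and *Hist1h4h* had the lowest. *Hist1h4h* was at 4.61, 3.38, 10.1 and 6.12 CPM against 16.2 and 11.9 CPM, with a log2 fold change of 1.18 (SE 0.34, edgeR adjusted p = 0.0108) that was no longer called without *c-Myc* replicate 1 (0.94, adjusted p = 0.137) or without juvenile replicate 2 (0.97).

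H2A and H2B form the dimers of the nucleosome core. *Hist1h2ak* was at 3.26, 4.30, 5.89 and 0.367 CPM in juvenile and at 29.3 and 27.7 CPM in *c-Myc* osteoblasts, a log2 fold change of 2.99 (SE 0.43, edgeR adjusted p = 7.93e-05). *Hist1h2ag* (3.77) and *Hist1h2af* (3.62) had larger log2 fold changes from juvenile levels of at most 0.41 and 1.23 CPM, and that of *Hist1h2ag* was 4.48 without juvenile replicate 2. *Hist2h2ac* was at 3.98, 2.77, 2.47 and 3.06 CPM against 11.5 and 12.6 CPM, a log2 fold change of 1.89 (SE 0.25). *Hist1h2ab* was at 1.90, 2.46, 3.56 and 0 CPM against 9.57 and 8.86 CPM, and its call (log2 fold change 2.16, edgeR adjusted p = 0.00858) was lost without *c-Myc* replicate 1 (adjusted p = 0.0567). *Hist3h2a*, 1 of the 2 *Hist3* genes, was at 0.41 to 2.33 CPM in juvenile and at 1.87 and 2.30 CPM in *c-Myc* osteoblasts and was not called (log2 fold change 1.01, SE 0.71, edgeR adjusted p = 0.253). It was called higher without juvenile replicate 3 (1.76, adjusted p = 0.0323), with a replicate block (1.63, adjusted p = 0.0424) and with library totals (1.85, adjusted p = 0.0312).

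Among the H2B genes, *Hist1h2bj* was at 4.52, 1.13, 0.685 and 2.08 CPM in juvenile and at 21.1 and 18.2 CPM in *c-Myc* osteoblasts, a log2 fold change of 3.09 (SE 0.43, edgeR adjusted p = 6.02e-05), or 3.84 without juvenile replicate 1. *Hist2h2bb* was at 4.70, 5.22, 10.1 and 4.41 CPM against 26.4 and 16.1 CPM, a log2 fold change of 1.75 (SE 0.31). *Hist1h2bc* and *Hist1h2be* passed the test with log2 fold changes of 0.77 (SE 0.20) and 0.97 (SE 0.28), under the fold threshold, and neither overlapped between the groups. *Hist1h2be* was called higher with no filter (1.03), with all 12 libraries in the fit (1.00) and without juvenile replicate 1 (1.12). Library totals called both *Hist1h2bc* (1.59) and *Hist1h2be* (1.80). *Hist1h2be* shares exon sequence with *Hist1h1e* on the same strand. *Hist2h2be* (-1.19, SE 0.80, edgeR adjusted p = 0.229) and *Hist1h2bp* (2.33, SE 1.02, edgeR adjusted p = 0.0706) did not pass the test.

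By cluster, 41 of 45 tested *Hist1* genes were called higher, and their median was 2.83 on the log2 scale, against 4 of 7 *Hist2* genes with a median of 1.75. The difference between clusters was not tested. By gene model, the median log2 fold change was 2.45 where the model ended at the stem-loop (15 of 16 tested genes called), 2.49 where it ran on (17 of 22) and 3.13 where it held no stem-loop (14 of 16), the last with *Hist1h3h* at its fitted value. By promoter, the 11 tested genes with the octamer had a median of 1.89 and the 38 without it 2.80. The 28 with TATAAA had 2.84 against 2.33 in the 21 without. For CCAAT the medians were 2.54 in the 42 genes with it and 3.31 in the 7 without. For the H1 box they were 2.24 in the 6 genes with it and 2.76 in the 43 without. These are descriptions of lists that overlap in class and cluster.

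Genes known to act on histone mRNA had smaller changes. Of 23 tested genes for transcription, processing and decay of histone mRNA, 9 were called higher in *c-Myc* osteoblasts and 0 lower, and the median of their log2 fold changes was 0.92. *Slbp*, whose product binds the stem-loop, was at 6.78, 8.09, 4.52 and 8.20 CPM in juvenile and at 17.5 and 14.8 CPM in *c-Myc* osteoblasts, a log2 fold change of 1.16 (SE 0.23, edgeR adjusted p = 0.00106). *Eri1*, the exonuclease that trims the stem-loop end, rose with a log2 fold change of 1.23 (SE 0.20). So did *Srrt* (1.72) and *Ncbp1* (1.55), which act at the mRNA cap, and *Cstf2* (1.46), a cleavage factor. *Npat* was at 8.19 to 13.7 CPM in juvenile and at 15.5 and 16.6 CPM in *c-Myc* osteoblasts and did not pass the test (log2 fold change 0.51, SE 0.22, edgeR adjusted p = 0.0688). *Casp8ap2*, a partner of U7 processing, and the U7 subunits *Lsm10* and *Lsm11* did not pass it either, with log2 fold changes of 0.22, -0.99 and -0.02. *Zfp473* was too low to be tested.

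Of 27 genes for histone chaperones and nucleosome assembly, 17 were called higher and 0 lower, and the list's median was 1.62 on the log2 scale. The subunits of CAF-1, which deposits new H3 and H4 at replication forks, were called, with *Chaf1a* at 2.33 to 9.86 CPM in juvenile and 53.1 and 57.6 CPM in *c-Myc* osteoblasts (log2 fold change 2.85, SE 0.30) and *Chaf1b* with a log2 fold change of 2.68 (SE 0.29). The H3 and H4 chaperone *Asf1b* (3.43), the H4 acetyltransferase *Hat1* (2.72) and the linker and H3 chaperone *Nasp* (2.56) had log2 fold changes of a like size. *Hira*, which deposits H3.3 outside replication, had a log2 fold change of 1.68 (SE 0.15), and *Asf1a* of 1.03 (SE 0.25).

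Histone variants outside the clusters, which are made throughout the cell cycle or have tailed mRNAs, did not all move in the same direction. Of 11 tested genes, 4 were called higher and 1, *H1f0*, lower, and the list's median was 0.61 on the log2 scale. *H2afz* was at 44.2 to 56.7 CPM in juvenile and at 164 and 140 CPM in *c-Myc* osteoblasts, a log2 fold change of 1.5 (SE 0.11). *H2afx*, the source of γH2AX, was at 9.92 to 17.4 CPM against 44.7 and 43.1 CPM, a log2 fold change of 1.61 (SE 0.19), and *H2afj* (1.38) and the centromere gene *Cenpa* (2.34) were called as well. The H3.3 genes differed from each other, with *H3f3a* at a log2 fold change of 0.61 (SE 0.11, edgeR adjusted p = 0.000445) and *H3f3b* at -0.03 (SE 0.10, edgeR adjusted p = 0.791). *H2afy* passed the test at 0.93, under the fold threshold, and *H2afv* did not (-0.68, edgeR adjusted p = 0.082).

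S-phase and proliferation genes were also higher. All 24 of the list were tested, 23 were called higher and 0 lower, and the median log2 fold change was 2.72. *Mki67* was at 25.3 to 44.1 CPM in juvenile and at 169 and 171 CPM in *c-Myc* osteoblasts (log2 fold change 2.25, SE 0.19), and *Pcna*, the replication clamp, at 16.5 to 23.7 against 85.8 and 73.0 CPM (1.91, SE 0.14). The replication licensing genes *Cdc6* (3.65), *Mcm5* (3.39) and *Mcm2* (3.34) and the S-phase cyclins *Ccne1* (3.25) and *Ccne2* (1.40) were called, and *Cdk2* (0.87, SE 0.25) was under the fold threshold. *Cdc6* was at 0 to 2.99 CPM in juvenile libraries, and its log2 fold change was 5.04 without juvenile replicate 1 and was not called by DESeq2 (adjusted p = 0.0757). The ratio of the summed histone CPM to the summed CPM of this list was 0.982 to 1.11 in juvenile, 1.16 to 1.54 in adult, 0.648 to 0.685 in *c-Myc* and 0.554 to 0.589 in *c-Myc* + *R172H* libraries, and is given as a description. *Rmrp*, an RNA without a poly(A) tail, was at 62.8 to 110 CPM in juvenile and 216 and 242 CPM in *c-Myc* osteoblasts, a log2 fold change of 1.30 (SE 0.22).

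**Figure D4:**
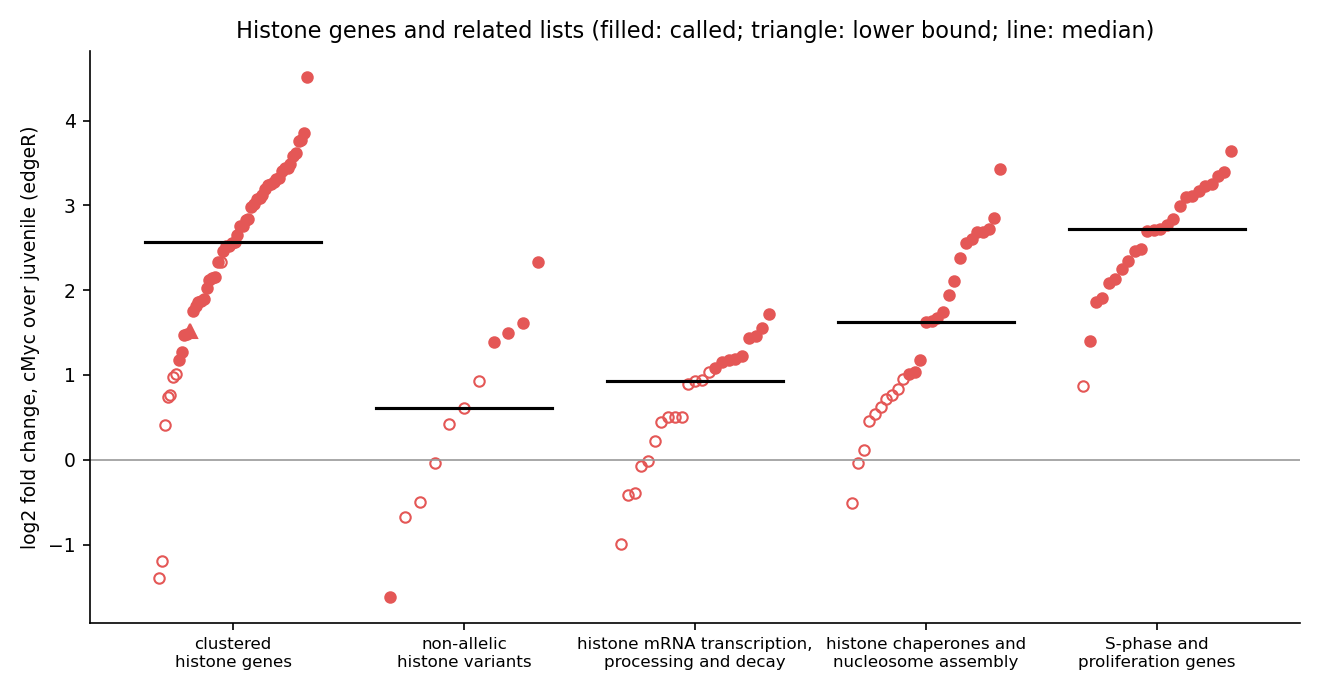
Log2 fold change of *c-Myc* over juvenile osteoblasts (y axis) for each tested gene of 5 lists (x axis, genes ordered by size within a list), with called genes filled, others open, *Hist1h3h* as a triangle at its lower bound and a line at the median. The medians are 2.57 for the clustered histone genes, 0.61 for histone variants, 0.92 for histone mRNA processing, 1.62 for chaperones and 2.72 for S-phase genes.

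Markers of other cells also differed between these groups, and their part in the histone differences was not tested. All 10 chondrocyte markers were called lower in *c-Myc* osteoblasts, with summed levels of 8450 to 25300 CPM in juvenile and 351 to 558 CPM in *c-Myc* libraries, and 8 of 10 osteoblast markers were called lower. Leukocyte markers summed to 0.724 to 1.74 CPM in juvenile and 8.57 to 8.73 CPM in *c-Myc* libraries, and endothelial markers to 0 to 2.53 CPM against 11 to 13.3 CPM. In *c-Myc* libraries the leukocyte sum was mostly *Lyz2* (142 and 103 counts), with *Ptprc* at 5 and 7. The endothelial sum was mostly *Egfl7* (130 and 131) and *Vwf* (90 and 85). Osteoclast markers summed to 200 to 327 CPM in juvenile and 85.8 to 106 CPM in *c-Myc* libraries, with 1 of 3 tested called lower. Stromal and adipogenic markers summed to 335 to 425 against 160 to 245 CPM, with 2 of 8 called lower and 1 higher. Of the erythroid list only *Tfrc*, which dividing cells also express, could be tested (log2 fold change 2.77).

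The comparison of *c-Myc* + *R172H* with *c-Myc* osteoblasts asks what loss of normal p53 function adds. No histone gene was called higher or lower among the 54 tested (edgeR, adjusted p under 0.05), where 0.00794% and 0.461% of all 12588 genes tested were called higher and lower. By edgeR 2 genes were at an unadjusted p under 0.05, and DESeq2 also called 0, but other settings called up to 3 genes lower. The summed CPM of all 67 genes were 855 and 858 in *c-Myc* + *R172H* osteoblasts against 1050 and 893 in *c-Myc* osteoblasts, a ratio of the means of 0.883. The log2 fold change was negative for 44 of the 54 genes, with a median of -0.17 against -0.003 over all genes tested, and all 12 H3 genes were on the negative side. This direction rests on the scaling: scaled to plain library totals, the median was 0.03.

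The 2 genes at an unadjusted p under 0.05 belonged to *Hist2*. One of them, *Hist2h2bb*, shares exon sequence with *Gm42743* on the same strand, so its counts are uncertain. *Hist2h2bb* was at 26.4 and 16.1 CPM in *c-Myc* and at 11.4 and 10.2 CPM in *c-Myc* + *R172H* osteoblasts (log2 fold change -0.96, SE 0.35, edgeR adjusted p = 0.672). *Hist2h4* was at 42.7 and 29.2 CPM against 17.6 and 21.2 CPM (log2 fold change -0.87, SE 0.36, edgeR adjusted p = 0.867). With 2 libraries in each group, 2338 of all 12588 genes tested were higher and 3310 lower without overlap, and 3 and 23 of the 67 histone genes. Neither *Hist2h2bb* nor *Hist2h4* overlapped between the groups, and *c-Myc* replicate 1 was the higher *c-Myc* library for both. With only the compared groups in the fit, both were called lower by edgeR (adjusted p = 0.0343 for *Hist2h2bb* and 0.0402 for *Hist2h4*), and so was *Hist1h3a* (0.0493). *Hist2h4* was also called lower with no filter (adjusted p = 0.0282), and both *Hist2* genes with a replicate block (0.0192 for *Hist2h2bb* and 0.0371 for *Hist2h4*). *Hist1h1b* differed by -0.04 (SE 0.16), *Hist1h1c* by -0.08 (SE 0.14) and *Hist1h1e* by 0.003 (SE 0.16) on the log2 scale. In the same comparison 0 genes of the variant, processing, chaperone and S-phase lists were called by edgeR, with 1 at an unadjusted p under 0.05 in the variant list and 0 in the others. Markers of other cells differed here too, and their part was not tested. From *c-Myc* to *c-Myc* + *R172H* libraries, the summed chondrocyte markers went from 454 ± 147 to 170 ± 2.77 CPM (mean ± SD, n = 2 each), with 0 of 10 called and 1 at an unadjusted p under 0.05. The summed osteoblast markers went from 102000 to 134000 CPM to 57800 to 59800 CPM. Of these 10, *Col1a1* was called lower and 7 were at an unadjusted p under 0.05. Of 8 stromal and adipogenic markers, *Lepr* was called lower (log2 fold change -1.08). Osteoclast markers summed to 85.8 to 106 CPM against 53.5 to 53.6 CPM, and leukocyte markers to 8.57 to 8.73 CPM against 2.65 to 5.48 CPM. *Lyz2* was the largest part of the leukocyte sum, with 142 and 103 against 78 and 28 counts.

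Compared with juvenile osteoblasts, with which the *c-Myc* comparison shares its control libraries, *c-Myc* + *R172H* osteoblasts had 43 histone genes called higher and 1 called lower of 54 tested. Among all 12588 genes tested, 19.6% were called higher and 17.9% lower. Without overlap between the groups, 4810 of them were higher and 3652 lower, and 51 and 1 of the 67 histone genes. The summed CPM of 855 and 858 stood against 194 to 274 in juvenile libraries, a 3.51-fold ratio of the means. The median log2 fold change of the tested genes was 2.30, with *Hist1h3h* at its bound, against 0.08 over all genes tested. By class the ratios of the summed CPM were 2.86-fold for H1, 5.79 for H2A, 3.16 for H2B, 5.49 for H3 and 4.06 for H4. *Hist1h1b*, at 75.6 and 74.8 CPM, had a log2 fold change of 2.80 (SE 0.15), *Hist1h3g*, at 8.44 and 6.77 CPM, of 4.2 (SE 0.57), and *Hist4h4*, at 11.3 and 13.5 CPM, of 3.58 (SE 0.50). *Hist1h3h*, with 21 and 16 counts, was at least 2.65-fold higher. *Hist3h2ba*, which was too low to be tested, had 14 and 10 counts against 0 in all juvenile libraries, at least 1.72-fold higher, while *c-Myc* libraries had 0 and 4. In this comparison all 10 chondrocyte markers and 8 of 10 osteoblast markers were called lower. So were 2 of 3 tested osteoclast markers and 4 of 8 stromal and adipogenic markers. Called higher were 2 of 2 tested endothelial markers, 1 of 3 leukocyte markers and 1 of 1 erythroid marker. The part of these cells in the histone differences was not tested.

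*Hist2h3c1* was the histone gene called lower. It shares exon sequence with *Gm20634* on the same strand, so its counts are uncertain. It was at 1.63, 2.15, 5.62 and 5.02 CPM in juvenile, 0.703, 2.23, 1.79 and 0.738 CPM in adult and 0.703 and 1.02 CPM in *c-Myc* + *R172H* osteoblasts. Juvenile replicates 3 and 4 were the high libraries, and the juvenile and *c-Myc* + *R172H* values did not overlap (log2 fold change -2.08, SE 0.72, edgeR adjusted p = 0.0268). The call was lost without juvenile replicate 3 (adjusted p = 0.0528), without *c-Myc* + *R172H* replicate 1 (0.165) or replicate 2 (0.0904), with a replicate block (0.0735) and with library totals (0.2).

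**Figure D5:**
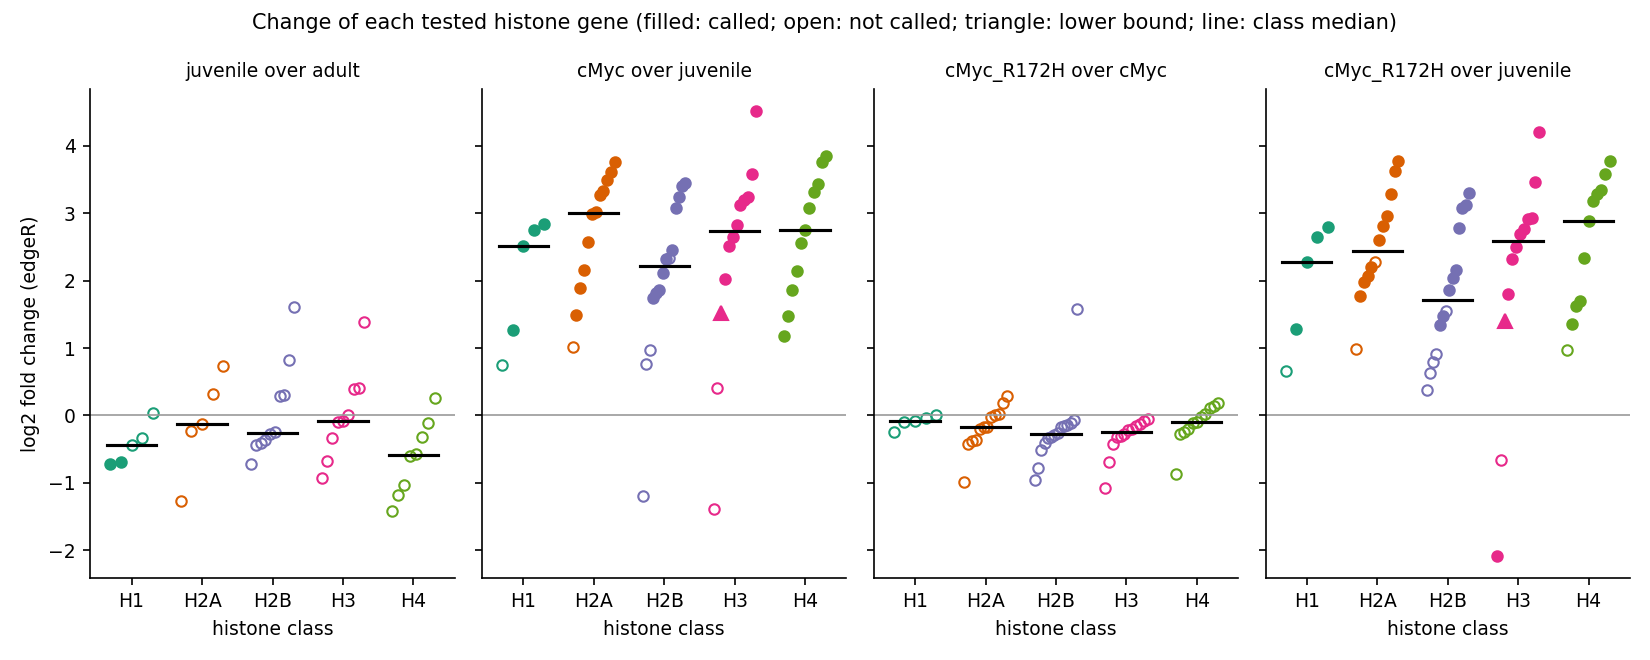
Log2 fold change (y axis) of each tested histone gene by class (x axis) in the 4 comparisons, with called genes filled, others open, *Hist1h3h* as a triangle at its lower bound and a line at the class median. Class medians lie between 2.22 and 3.00 for *c-Myc* over juvenile, between -0.28 and -0.08 for *c-Myc* + *R172H* over *c-Myc*, and between -0.59 and -0.08 for juvenile over adult.

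The age comparison asks how juvenile osteoblasts, in growing bone, differ from adult ones. The 67 genes summed to 274, 258, 249 and 194 CPM in juvenile and 442, 297, 306 and 284 CPM in adult osteoblasts, and the groups did not overlap. The means of 244 ± 34.8 (SD, n = 4) and 332 ± 74.0 (SD, n = 4) had a juvenile over adult ratio of 0.735. Of 37 histone genes tested, 0 were called higher and 2 lower in juvenile osteoblasts (edgeR, adjusted p under 0.05), where 1.89% of all 11345 genes tested were called higher and 3.23% lower. At an unadjusted p under 0.05 there were 5, and DESeq2 called 1 higher and 3 lower. The median log2 fold change was -0.28, against 0.001 over all genes tested.

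Both called genes were linker histones. *Hist1h1c* was at 74.0, 64.0, 53.6 and 58.0 CPM in juvenile and 136, 86.4, 91.7 and 98.3 CPM in adult osteoblasts, a log2 fold change of -0.73 (SE 0.15, edgeR adjusted p = 0.0098). *Hist1h1e* was at 49.8, 44.5, 43.0 and 32.1 CPM against 93.8, 70.0, 51.7 and 57.6 CPM, a log2 fold change of -0.70 (SE 0.18, edgeR adjusted p = 0.0324). Neither gene overlapped between the ages, and adult replicate 1 was the highest library for both. Of all 11345 genes tested, 699 were higher and 770 lower in juvenile libraries without overlap, and 1 and 3 of the 67 histone genes. *Hist1h1c* remained called whichever single library was left out, whereas *Hist1h1e* was not called without adult replicate 1 (adjusted p = 0.109) or without juvenile replicate 2 (0.079), 3 (0.0722) or 4 (0.0963).

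The other linker genes did not pass the test by age. *Hist1h1b* varied most among adult libraries, at 19.1, 1.89, 8.06 and 11.2 CPM, and spanned the juvenile values (log2 fold change 0.04, SE 0.49). *Hist1h1a* (-0.33, SE 0.28) and *Hist1h1d* (-0.45, SE 0.26) overlapped between the ages, and so did *H1f0* (0.06, SE 0.13). The summed H1 genes were at 132 ± 17.3 CPM (SD, n = 4) in juvenile and 203 ± 49.8 CPM (SD, n = 4) in adult osteoblasts, without overlap. H1 genes held 56.7% to 66.9% of all uniquely mapped histone counts in adult libraries.

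Core histone sums overlapped between the ages, with juvenile over adult ratios of the means of 0.921 for H2A, 0.98 for H2B, 1.11 for H3 and 0.698 for H4. *Hist1h4c* was at 2.80, 3.38, 5.48 and 1.71 CPM in juvenile and 6.83, 8.47, 7.54 and 7.28 CPM in adult osteoblasts, without overlap, and did not pass the test (log2 fold change -1.18, SE 0.36, edgeR adjusted p = 0.0656). It was called lower by DESeq2, and by edgeR with all 12 libraries in the fit, with library totals, with no filter or without juvenile replicate 3. *Hist1h2bg* was at 3.35, 2.36, 3.01 and 2.33 CPM against 1.00, 0.446, 1.41 and 0.738 CPM, also without overlap and not passing (1.61, SE 0.61, edgeR adjusted p = 0.142). It was the gene that DESeq2 called higher. S-phase genes overlapped between the ages in their sums, at 182 to 263 CPM in juvenile and 193 to 342 CPM in adult libraries, and 0 of 24 were called, with 1 at an unadjusted p under 0.05. Of the variant list *H2afy2* was called higher in juvenile osteoblasts (log2 fold change 0.90), and 0 genes of the processing list (1 at an unadjusted p under 0.05) and of the chaperone list (2) were called.

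Chondrocyte markers moved with age as well. They summed to 8450 to 25300 CPM in juvenile and 33200 to 122000 CPM in adult libraries, with adult replicate 1 the highest. Of the 10, 7 did not overlap between the ages and 1 was called, lower in juvenile libraries. *Col10a1* was on the other side (log2 fold change 0.66) and was not called. Osteoblast markers summed to 566000 to 828000 CPM in juvenile and 340000 to 611000 CPM in adult libraries. Of 10 tested, 3 were called higher in juvenile libraries and 0 lower. Leukocyte markers summed to 0.724 to 1.74 CPM against 6.53 to 11.5 CPM. In adult libraries this sum was mostly *Lyz2* (38, 82, 35 and 74 counts). The part of such cells in the higher *Hist1h1c* and *Hist1h1e* of adult libraries was not tested. Without adult replicate 1, the log2 ratio of the summed H1 genes was -0.44, against -0.62 with all 8 libraries.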

How the data were processed

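The authors prepared directional libraries with single-end reads of 86 bases, used bcl2fastq 2.20 for base calls and cutadapt 4.6 for trimming, mapped the reads to mm10 by STAR 2.7.11a and obtained gene counts of unique alignments from HTSeq-count 2.0.5. The deposited counts are raw and not normalized. The alignment and the counting used different GENCODE releases, and the strand setting is not given in the sources used here. The study itself tested genes with DESeq2.

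Groups and replicate numbers came from the titles. The count table has 12 library columns, all used, with totals from 9066154 to 15684412. No 2 replicates agreed within sampling noise (chi-square over its degrees of freedom 5.45 to 136). Nothing used here says that libraries of an induced group came from separate mice, so p-values measure the spread between these libraries, which may be technical. Libraries of 2 per group limit the precision, and a floor of 3 counts covers counting error only, as there are no molecular identifiers.

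All genes were tested in R 4.3.3 with edgeR 4.0.16 (TMM factors, default expression filter, robust quasi-likelihood fit, F test) and Benjamini-Hochberg adjustment at 0.05 over all genes tested. The age fit used the 8 juvenile and adult libraries. The other comparisons shared a fit of the juvenile and both induced groups, and those against juvenile also required a log2 fold change of 1 or more in size, as in the study. The SE is approximate: the size of the log2 fold change over the square root of F. A fold against a group at 0 in every library was computed as a bound against 3 counts per library. Class sums have no test. Unique windows, exon overlaps and stem-loops were computed from a GENCODE annotation and transcripts of GRCm38, of a release near but not equal to those of the authors. Stem-loops were searched with a degenerate 16-base consensus of histone mRNA ends, and promoter sequences are from RefSeq, with entries for 61 of the 67 genes.

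The histone genes, the gene lists and the tests were chosen with earlier results of these data known. Genes named are the 4 most abundant of each class, all H1, *Hist3* and *Hist4* genes, up to 6 called genes per direction and comparison with non-overlapping groups, and for each list up to 3 of the largest changes and a fixed set of regulators and variants. Histone genes near 0, those that were not called and *H2afy2* were named after their values were seen. Alternatives were RLE and upper-quartile factors, TMM factors computed without *Gm26917*, *Col1a1* and *Col1a2*, library totals, no filter, a minimum of 10 counts in each library, fits of all 12 libraries or of the compared groups alone, DESeq2 1.42.0, a replicate block, and each library left out. The fits were tested on simulated data.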

Additional observations from a re-analysis of the deposited data

Results flagged for a closer look

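In 72 sets of 4 libraries, a gene or class sum within the juvenile or adult group, 10 had a library whose distance from the others exceeded Dixon's 95% value for 4 samples. Chance gives about 5% of independent sets, which these are not. Of these, 5 were high in adult replicate 1, in which all 67 histone genes summed to 442 CPM against 284 to 306 in the other adult libraries, the H1 genes to 277 CPM against 173 to 190, *Hist1h2bj* was at 5.22 CPM against 1.56 to 1.79, *Hist1h2ab* at 2.51 against 0.511 to 0.844 and *Hist1h3h* at 0.602 against 0. That library also had the highest summed chondrocyte markers (122000 CPM) and S-phase genes (342 CPM) of its group, and the part of either was not tested.

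The other flagged values were *Hist2h2bb* at 10.1 CPM in juvenile replicate 3 (4.41 to 5.22 in the other juvenile libraries), *Hist1h1t* at 1.51 CPM in juvenile replicate 3 and at 0.844 CPM in adult replicate 4, summed H2A genes at 8.57 CPM in juvenile replicate 4 (15.8 to 17.2 in the others) and summed H4 genes at 42.1 CPM in adult replicate 4 (60.3 to 63.4 in the others). *Hist1h1t* in juvenile replicate 3 and *Hist1h3h* in adult replicate 1 stood against 0 in the other libraries. Such a gene is flagged whatever its count. The class sums also share genes with each other and with the named genes. The number of flagged sets therefore cannot be set against the share given by chance.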

How the results depend on the processing

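Library totals in place of TMM factors shifted the median log2 fold change of all genes to 0.87 for *c-Myc* and 1.12 for *c-Myc* + *R172H* over juvenile and to 0.21 for *c-Myc* + *R172H* over *c-Myc*. With them the histone medians were 3.42, 3.37 and 0.033 in this order, the last with its direction turned. The log2 ratios of the class sums (H1, H2A, H2B, H3, H4, all) became 2.37, 3.41, 2.76, 3.48, 3.02 and 2.75 for *c-Myc* and 2.50, 3.52, 2.65, 3.45, 3.02 and 2.80 for *c-Myc* + *R172H* over juvenile. For *c-Myc* + *R172H* over *c-Myc* those of H1 (0.14), H2A (0.11) and all (0.047) turned positive, and those of H3 and H4 were -0.03 and -0.005. Upper-quartile factors gave 1.41 (H1), 2.52 (H3) and 1.80 (all) for *c-Myc* and 1.36, 2.30 and 1.65 for *c-Myc* + *R172H* over juvenile.

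With at least 10 counts in every library, 20 histone genes were tested, 16 were called higher in *c-Myc* (median 1.85) and 14 in *c-Myc* + *R172H* (median 1.56) over juvenile osteoblasts, since genes near 0 in juvenile libraries left the test. *Hist2h3c1* was the gene called lower in *c-Myc* + *R172H* osteoblasts, and with library totals or the replicate block 0 genes were called lower. By age, 1 gene (*Hist1h2bg*) was called higher by DESeq2 and with all 12 libraries in the fit, and 3 were called lower in both and with library totals or no filter, *Hist1h4c* joining *Hist1h1c* and *Hist1h1e*. Adding R172H gave 1 gene called lower without a filter (*Hist2h4*), 3 with only the compared groups in the fit (*Hist1h3a*, *Hist2h2bb*, *Hist2h4*) and 2 with the replicate block (*Hist2h2bb*, *Hist2h4*). The cause was not tested.

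Correlations of same-numbered libraries were -0.08 to 0.06 by age, 0.058 and -0.043 for *c-Myc* and 0.178 for R172H. With 2 libraries in each induced group, deviations from the group mean mirror each other, so both R172H pairs give the same value by construction. It cannot show whether these libraries deviated together. The rule used for pairing needed at least 3 pairs, each above 0.1, so libraries share only a number. The replicate block moved the *c-Myc* median to 2.32.

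Leaving out 1 library at a time gave 1 to 2 genes called lower by age, 40 to 47 called higher in *c-Myc* (median 2.55 to 2.86), 39 to 47 in *c-Myc* + *R172H* over juvenile (median 2.32 to 2.54, with 0 to 1 called lower), and medians of -0.32 to -0.059 for *c-Myc* + *R172H* over *c-Myc*. There the class ratios ranged from -0.16 to -0.03 for H1, -0.17 to -0.08 for H2A, -0.55 to -0.088 for H2B, -0.37 to -0.13 for H3, -0.40 to -0.041 for H4 and -0.29 to -0.06 for all. Counts called higher in the *c-Myc* comparisons stayed within 1.5 times the reported count under the other settings. *H1f0* was under the fold threshold with library totals in *c-Myc* (-0.78) and *c-Myc* + *R172H* osteoblasts (-0.999). With 2 libraries in each induced group, and *Hist1h3h* and *Hist3h2ba* at 0 in juvenile libraries, depth limits these genes to lower bounds. *Hist1h3h* was also limited by having only 6.75% unique windows.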
